A study of Mus musculus with 13 samples.

Results

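The genes described here carry peptides from inside the cell to its surface on major histocompatibility complex (MHC) class I molecules. They are the heavy chains H2-K1 and H2-D1, the light chain B2m, the peptide transporter subunits Tap1 and Tap2, the transporter's partner Tapbp, the inducible proteasome subunits Psmb8, Psmb9 and Psmb10, and Bst2. Bst2 is tetherin, an interferon-induced membrane protein that holds budding virus particles and takes no part in presentation. The 10 genes were listed by name and found as rows of a gene-level expression table of 23236 rows, and all 10 were measured. The series holds 13 samples of C2C12, a mouse myoblast line, of which 4 are RNA-seq and 9 are ChIP-seq libraries. The comparison uses 2 RNA-seq libraries of poly(A)-selected RNA from cells at the myoblast stage, labelled siNC and siLinc-Yy1. Such names usually mark cells given a control siRNA (siNC) and cells given one that targets Linc-Yy1, an intergenic noncoding RNA encoded beside the Yy1 gene. Both are of the same line, the labels name no other agent, and each condition has 1 library. The other samples were not analysed here.

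A class I molecule is a membrane-bound heavy chain paired with beta-2 microglobulin, the product of B2m, around a short peptide. The peptides come from proteins cut by the proteasome. Interferon can replace the catalytic subunits Psmb5, Psmb6 and Psmb7 by Psmb8, Psmb9 and Psmb10, which gives the immunoproteasome. The Tap1 and Tap2 proteins pump the peptides into the endoplasmic reticulum, and tapasin, the product of Tapbp, holds the empty heavy chain at the transporter. Muscle fibres at rest carry little class I on their surface, and interferon gamma raises it in myoblasts. Class I, Tap and immunoproteasome genes are known for promoters that respond to interferon, to NF-kB and to the coactivator Nlrc5.

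The stretches just before the start sites of 4 members and the stretch between Psmb9 and Tap1 are shown because these genes differed most or share a promoter. They are from RefSeq (GRCm38.p6), which held such a stretch for 9 of the 10 members; Tap2 had none. Each is written 5′ to 3′ along the gene, ends at the base before the start site, and has 250 bases (225 for Psmb9 and Tap1). Capitals mark matches, on either strand, to 5 motifs: GAAA, any 2 bases and GAAA again (interferon response element), TTCNNNGAA (Stat element), GGGA, any 4 bases and CC (NF-kB), TGACG (cyclic AMP response element) and CCAAT (NF-Y). Matches may overlap.
B2m, chr2:122147437-122147686, plus strand: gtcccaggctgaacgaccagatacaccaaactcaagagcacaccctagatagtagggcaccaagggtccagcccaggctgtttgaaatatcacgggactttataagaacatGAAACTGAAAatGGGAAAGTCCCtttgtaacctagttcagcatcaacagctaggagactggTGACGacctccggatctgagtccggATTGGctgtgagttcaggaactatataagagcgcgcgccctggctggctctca
Bst2, chr8:71537473-71537722, minus strand: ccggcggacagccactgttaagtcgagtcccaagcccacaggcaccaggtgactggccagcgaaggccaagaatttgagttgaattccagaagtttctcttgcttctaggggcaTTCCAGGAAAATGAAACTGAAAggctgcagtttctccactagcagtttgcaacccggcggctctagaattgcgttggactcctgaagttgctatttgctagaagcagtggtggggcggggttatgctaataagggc
H2-K1, chr17:34000348-34000597, minus strand: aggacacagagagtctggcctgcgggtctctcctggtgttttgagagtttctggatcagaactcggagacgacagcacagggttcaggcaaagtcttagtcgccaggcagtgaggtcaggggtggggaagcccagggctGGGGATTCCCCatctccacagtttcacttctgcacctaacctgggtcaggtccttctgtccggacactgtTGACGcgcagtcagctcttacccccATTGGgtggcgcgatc
H2-D1, chr17:35262844-35263093, plus strand: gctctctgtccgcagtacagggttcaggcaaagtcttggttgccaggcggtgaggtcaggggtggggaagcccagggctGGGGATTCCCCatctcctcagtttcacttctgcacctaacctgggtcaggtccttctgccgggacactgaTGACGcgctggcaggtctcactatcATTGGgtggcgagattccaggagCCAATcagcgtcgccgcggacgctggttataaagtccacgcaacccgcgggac
Psmb9 to Tap1, chr17:34187331-34187555, plus strand (along Tap1): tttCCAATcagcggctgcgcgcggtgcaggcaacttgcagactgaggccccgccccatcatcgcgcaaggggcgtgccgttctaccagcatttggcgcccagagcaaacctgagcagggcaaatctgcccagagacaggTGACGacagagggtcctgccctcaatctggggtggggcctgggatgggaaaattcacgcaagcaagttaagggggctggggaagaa

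The letters searched for the interferon response element were found in 2 of the 9 members, B2m and Bst2. They occurred in 2.98% of all 32851 RefSeq windows of this length. Looser spellings were not searched, so a window without a match may still hold such an element. B2m held GAAACTGAAA from 139 to 130 bases before its start, and Bst2 held the same letters from 124 to 115 bases before its own. The longest run of letters shared by these windows, ATGAAACTGAAA, is 12 bases long and covers that match. In Bst2 a further match to the motif, GAAAATGAAA, from 130 to 121 bases before the start, overlaps it. The Bst2 match TTCCAGGAA to TTCNNNGAA, from 136 to 128, overlaps only that further match. The NF-kB motif was present in B2m, H2-K1 and H2-D1 (3 of 9, against 17.6% of all windows). TGACG was present in 5 of 9 members against 17.8%, and CCAAT in 6 of 9 against 33.8%. TTCNNNGAA was present in Bst2 and Psmb8 (2 of 9, against 7.02%). The H2-K1 and H2-D1 windows were 87.4% identical over 190 aligned bases, with a longest shared run of 47 bases that holds the NF-kB match. Psmb9 and Tap1 run in opposite directions from the 225 bases shown, so the TGACG and CCAAT in it count for both genes. A match describes letters and does not show that a factor binds, and a missing match does not show that an element is absent.

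In the table's mm9 coordinates, 7 of the 10 members lie on chromosome 17. They run in the order Tapbp (34056423 to 34066235), H2-K1 (34132957 to 34137278), Psmb9 (34319044 to 34324275), Tap1 (34324501 to 34334170), Psmb8 (34335140 to 34338399) and Tap2 (34341424 to 34353266). H2-D1 follows in a locus from 35400039 to 35462354 that also holds H2-Q1 and LOC547349, so reads had to be divided among 3 gene rows there. Bst2 (74058161 to 74061336) and Psmb10 (108459628 to 108462292) are on chromosome 8. B2m is on chromosome 2, in a locus from 121945844 to 122011925 that it shares with Patl2 and Trim69, both under 0.3 FPKM in each library. Heavy chain genes are near-identical copies of each other and differ between mouse strains. C2C12 comes from the C3H strain and mm9 is of another strain, so heavy chain values depend on how such reads were aligned, which is not given in the sources used here.

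Levels are in FPKM, the fragments found per kilobase of a transcript after scaling to library depth, so they can be set against each other between genes. The change of a gene is the log2 ratio of siLinc-Yy1 over siNC after 1 FPKM was added to each value, a step that shrinks the change of scarce genes. With 1 library per condition no test across replicates exists, and the values describe these libraries. Steps between low FPKM values put the depth of siNC at 65.9 M fragments and that of siLinc-Yy1 at 47.1 M, provided nothing else was scaled. The intervals given with ratios are exact binomial (Clopper-Pearson) 95% intervals. Except for the lincYy1 row, they are from the fragments on 1 kb of transcript at that depth. They cover counting error only, and a longer transcript has a narrower one. In bulk RNA, fewer cells expressing a gene and less RNA per cell cannot be told apart. The targeted row, lincYy1, stood at 0.360 FPKM in siNC against 0.227 FPKM in siLinc-Yy1, with a q-value of 0.878 in the authors' deposited table. Its ratio of 0.629 has an interval (0.309 to 1.30) that includes 1. That interval is from the estimated fragments on its whole locus, 28 in siNC and 13 in siLinc-Yy1. All 9 myoblast markers were measured, among them Des, Cdh15 and Myod1. Of 15 immune cell markers 2 reached a mean of 1 FPKM, Cd14 and Cd68, and the list summed to 16.3 FPKM in siNC against 15.7 FPKM in siLinc-Yy1. Ptprc, the pan-leukocyte marker, stood at 0.0226 and 0.0101 FPKM, and none of 6 endothelial markers reached 1 FPKM in its mean.

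The abundant members were higher in the siLinc-Yy1 library and most of the scarce ones were lower. All 6 members with a mean of at least 20 FPKM, Bst2 among them, were higher, with a median log2 change of 0.51. Of the 4 members under 20 FPKM, 1 was higher and 3 were lower, with a median of -0.23. That split was made after the values were seen. Among all rows, 3230 of 4497 at or above 20 FPKM were higher, with a median of 0.09, and 2124 of 7295 between 1 and 20 FPKM were, with a median of -0.08.

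**Figure D1:**
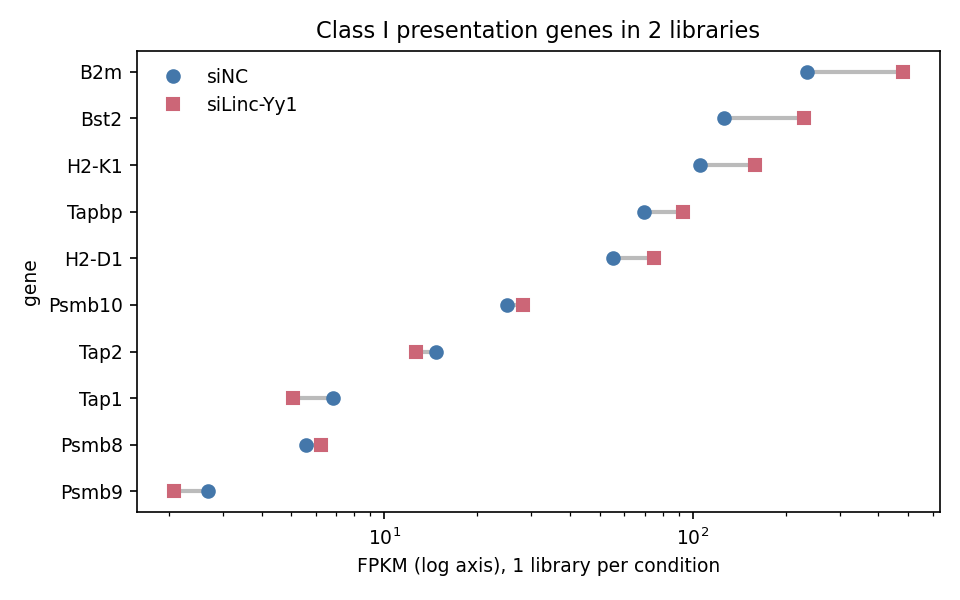
FPKM of the 10 genes on a log axis, ordered by mean level, with 1 point per library (circles siNC, squares siLinc-Yy1) and a line joining them. B2m, Bst2, H2-K1, Tapbp, H2-D1, Psmb10 and Psmb8 were higher in siLinc-Yy1, and Tap2, Tap1 and Psmb9 were lower.

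B2m, the invariant light chain of every class I molecule, was the most abundant member. It stood at 234 FPKM in siNC against 481 FPKM in siLinc-Yy1, a ratio of 2.06 (2.0157 to 2.1001) and a log2 change of 1.04. It was the only member at least 2-fold higher, where 1.39% of 11792 rows with a mean of at least 1 FPKM were, and no member was at least 2-fold lower, where 0.178% were. The 2-fold mark was missed with both libraries rescaled to the same summed FPKM (0.72) and when the running median of rows of similar level was subtracted (0.46). The authors' deposited table called it higher, with a q-value of 0.00405.

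Bst2 stood at 127 FPKM in siNC against 229 FPKM in siLinc-Yy1. Its ratio was 1.81 (1.76 to 1.86) and its log2 change 0.85. The authors' deposited table called it higher with a q-value of 0.00100. B2m and Bst2 were the 2 members that the table called, both higher, beside 1.29% of 14366 tested rows called higher and 0.327% called lower.

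The heavy chains present the peptide itself. H2-K1 stood at 106 FPKM in siNC against 159 FPKM in siLinc-Yy1, a ratio of 1.51 (1.46 to 1.56). H2-D1 stood at 55.2 and 74.7 FPKM, a ratio of 1.35 (1.29 to 1.42). Both were higher in siLinc-Yy1, and the authors' deposited table called neither (q-values of 0.221 and 0.485). With B2m and Bst2, H2-K1, which lies at the threshold itself, made 3 members at least 1.5-fold higher, where 3.28% of all rows were; none was 1.5-fold lower, where 0.517% were. Both heavy chains gained less than the light chain. The summed FPKM of H2-K1 and H2-D1 was 0.688 of B2m in siNC and 0.486 in siLinc-Yy1. This ratio lies within each library and does not move with the scaling between them. It does move with level, since abundant rows in general were higher in siLinc-Yy1. The running median of rows of similar level was 0.57 for B2m, 0.29 for H2-K1 and 0.15 for H2-D1 on the log2 scale. Between the heavy chains, H2-K1 was 1.91 times H2-D1 in siNC and 2.13 times in siLinc-Yy1.

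The peptide loading genes did not move as 1 group. Tapbp stood at 69.6 FPKM in siNC against 92.8 FPKM in siLinc-Yy1, a ratio of 1.33 (1.28 to 1.39). Tap1 stood at 6.84 and 5.04 FPKM, a ratio of 0.738 (0.628 to 0.866). Tap2 stood at 14.7 and 12.7 FPKM, a ratio of 0.861 (0.776 to 0.954). The chaperone that bridges to the transporter was thus higher while both pump subunits were lower. Their q-values in the authors' deposited table were 0.669 for Tapbp, 0.450 for Tap1 and 0.935 for Tap2. Tapbp was 10.2 times Tap1 in siNC and 18.4 times in siLinc-Yy1. This ratio too moves with level, as the running median was 0.18 for Tapbp and -0.09 for Tap1 on the log2 scale. The pump's subunits stayed closer to each other, with Tap2 at 2.15 times Tap1 in siNC and 2.51 times in siLinc-Yy1.

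Psmb9, the inducible counterpart of Psmb6, was the scarcest member. It stood at 2.69 FPKM in siNC against 2.08 FPKM in siLinc-Yy1, a ratio of 0.772 (0.599 to 0.997). Psmb9 starts 225 bases from Tap1 across the stretch shown above. The level of Tap1 over that of Psmb9 was 2.54 in siNC and 2.43 in siLinc-Yy1, so the pair moved by similar amounts. Psmb8, the inducible counterpart of Psmb5 that lies between Tap1 and Tap2, stood at 5.59 and 6.24 FPKM. Its ratio of 1.12 has an interval (0.955 to 1.31) that includes 1. Psmb10, the inducible counterpart of Psmb7, was the most abundant of the 3 subunits, at 24.9 and 28.3 FPKM, a ratio of 1.13 (1.05 to 1.22). With both libraries rescaled to the same summed FPKM, Psmb8 turned to -0.14 and Psmb10 to -0.13 on the log2 scale. No call was made for these 3 in the authors' deposited table, with q-values of 0.890 for Psmb9, 1.000 for Psmb8 and 0.981 for Psmb10.

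The constitutive subunits were far more abundant than the inducible ones in both libraries. Psmb5 stood at 103 and 107 FPKM, Psmb6 at 116 and 148 FPKM, and Psmb7 at 157 and 192 FPKM. As a share of the FPKM of each pair, Psmb8 made 5.14% (4.64% to 5.68%) in siNC and 5.53% (4.93% to 6.18%) in siLinc-Yy1. Psmb9 made 2.26% (1.94% to 2.61%) and 1.38% (1.13% to 1.68%). Psmb10 made 13.7% (13.1% to 14.3%) and 12.8% (12.2% to 13.5%). On 1 kb of transcript at the estimated depth, the intervals of the Psmb9 share did not overlap, while those of the other 2 shares did. The Psmb9 share also moves with level, as the running median was -0.08 for Psmb9 and 0.28 for Psmb6 on the log2 scale. Over the 3 pairs together the inducible share was 8.11% in siNC and 7.57% in siLinc-Yy1.

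**Figure D2:**
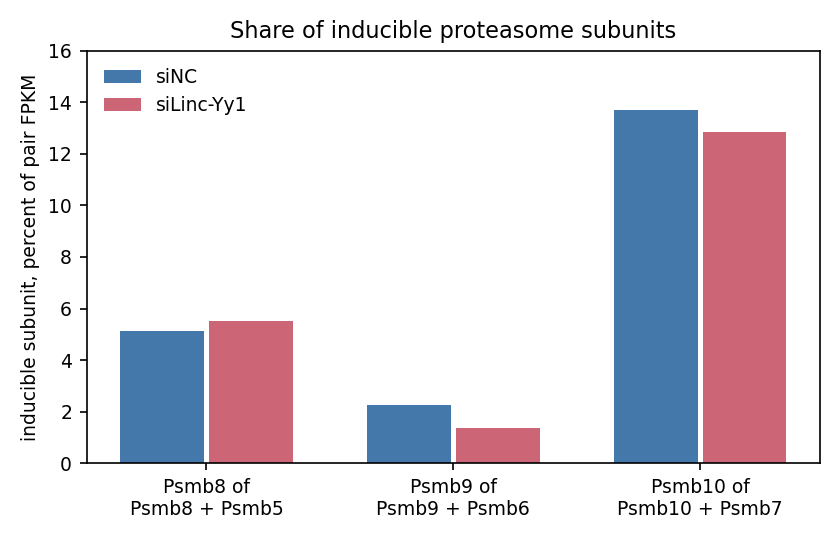
Share of the inducible subunit in the summed FPKM of each catalytic pair, in percent, with 1 bar per library. Psmb9 made 2.26% of its pair in siNC and 1.38% in siLinc-Yy1, and no share reached 15%.

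Rows of similar level were needed to read these values, because abundant rows in general were higher in siLinc-Yy1. The median log2 change was -0.09 among 2644 rows of 1 to 5 FPKM, 0.29 among 447 rows of 100 to 200 FPKM and 0.77 among 120 rows of at least 400 FPKM. Across the 10 members, too, change went with level (Spearman's rho of 0.93 and Pearson's r of 0.93 on log2 mean FPKM, n = 10 genes). Without B2m and Bst2 rho was 0.86 (n = 8 genes). With the running median subtracted from each change, rho was 0.88 over the 10 members and 0.79 without B2m and Bst2. All points come from the same pair of libraries, so these correlations are descriptions.

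**Figure D3:**
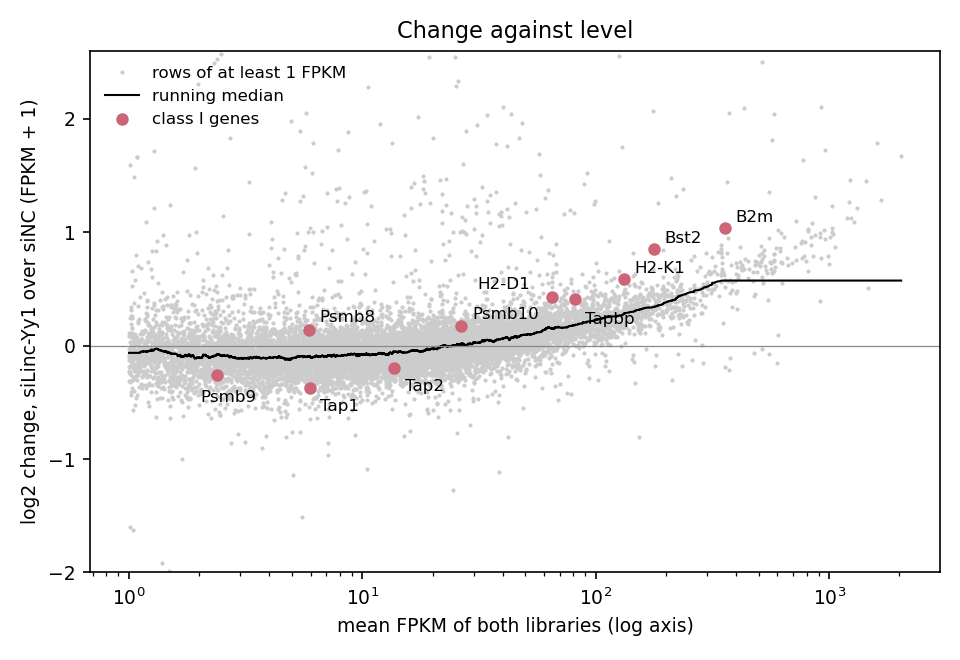
Log2 change of siLinc-Yy1 over siNC against mean FPKM (log axis) for 11773 rows, with 19 further rows outside the vertical axis, the running median and the 10 genes in red. The running median rises from below 0 at low levels, and it is flat at the right end because its window cannot pass the most abundant row.

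B2m was set against the 200 single-gene rows nearest to it in mean FPKM, 100 on each side, which spanned 228 to 835 FPKM. These rows had a median log2 change of 0.61, and the middle 50% of them lay between 0.43 and 0.74. B2m, at 1.04, lay 0.43 above their median. Of the 200 rows, 10 changed more than B2m and 13 were at least 2-fold higher. Among them were the small structured RNAs Rnu12, Rmrp, Snord104, Snord32a, Snord100, Snord12 and Snord99, the ribosomal protein gene Rps10, and Lars2, a mitochondrial tRNA synthetase. The authors' deposited table called 11 of these 200 rows higher and none lower. The rows closest to B2m in level included Rpl14, Naca, Pgam1, Gpx4 and Rps23. None of these reached the change of B2m. The glutathione peroxidase Gpx4 came nearest, at 274 and 431 FPKM (0.65).

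When ribosomal protein, histone and small structured RNA rows were left out, 167 rows remained around B2m, up to 1663 FPKM, since fewer than 100 lie above it. Of these, 9 changed more than B2m, among them Gm20594, Lars2, Tmsb10, Lgals1, Eef1a1, Fth1, Spp1 and Ptma. All 9 but Lars2 had a mean above 800 FPKM, well above B2m. Among the 200 rows nearest to Bst2, of 149 to 227 FPKM, the median was 0.34, and Bst2 at 0.85 lay 0.51 above it, with 5 rows above. Whether Bst2 or B2m lay farther from its neighbours depended on the rows used: with up to 400 rows Bst2 lay 0.50 above and B2m 0.52. With ribosomal protein, histone and small RNA rows left out, 0 of 200 rows nearest to Bst2 changed more, and both genes lay 0.52 above the median.

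The other members were placed in the same way. H2-K1 lay 0.31 above the median of its 200 nearest rows, of which 7 changed more. H2-D1 lay 0.26 above, with 12 rows above it, and Tapbp 0.23 above, with 11. Psmb8 also lay 0.23 above the median of its nearest rows, with 13 rows above it, since rows near 6 FPKM had a median of -0.10. Psmb10 lay 0.17 above, with 23 rows above it. Tap1 lay 0.27 below its nearest rows and 3 of 200 were lower still. Tap2 lay 0.14 below, with 20 rows lower, and Psmb9 0.18 below, with 33 lower. All 10 members lay outside the middle 50% of their nearest rows, 7 above it and 3 below.

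**Figure D4:**
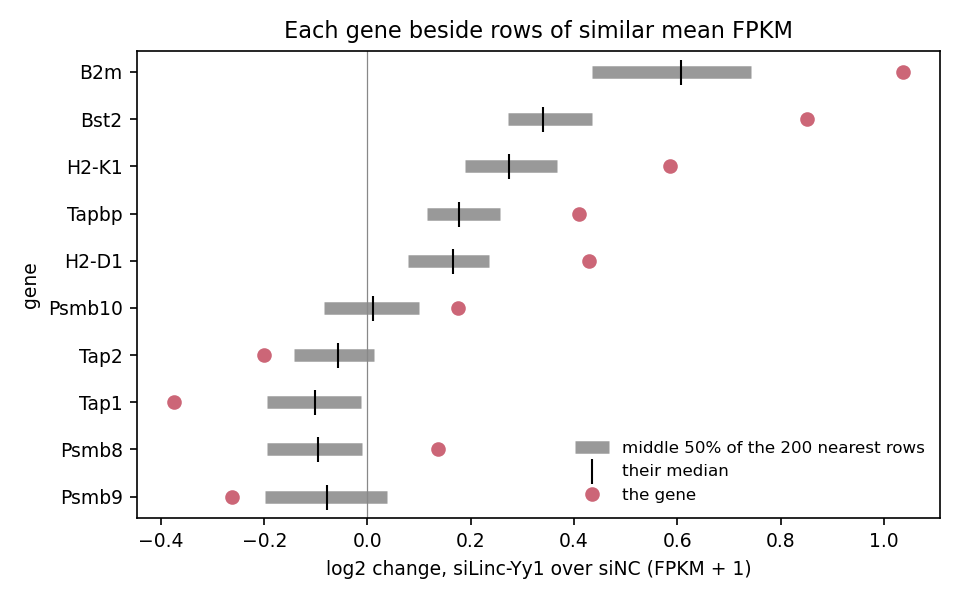
Log2 change of each gene (red) beside the 200 rows nearest in mean FPKM (grey bar, middle 50%; tick, median). B2m, Bst2, H2-K1, Tapbp, H2-D1, Psmb10 and Psmb8 lie to the right of the bar, and Tap2, Tap1 and Psmb9 to its left.

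With the running median subtracted, the members kept their signs and had a median of 0.23. Bst2 stood at 0.51, B2m at 0.46, H2-K1 at 0.30, H2-D1 at 0.28, Tapbp and Psmb8 at 0.23 and Psmb10 at 0.16. Tap1 stood at -0.28, Psmb9 at -0.18 and Tap2 at -0.15. B2m is so abundant that the window of the running median is cut off above it, so its place among the nearest rows is the better measure. Before subtraction the median of the 10 members was 0.29, against -0.02 over all 11792 rows, and 7 of 10 were above 0, where 45.4% of all rows were.

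The other genes of the pathway lay closer to 0. Of 30 such genes found, 21 were higher and 9 lower, none by 2-fold, and the authors' deposited table called none. Their median log2 change was 0.11, and -0.02 with the running median subtracted. Among the constitutive catalytic subunits, proteasome activators and assembly factors, 8 of 9 were higher. Psme1 and Psme2, which form the interferon-induced activator ring of the proteasome, measured 84.1 and 111 FPKM (Psme1) and 98.4 and 116 FPKM (Psme2). Among 9 peptidases that trim peptides, 3 were higher and 6 lower, all between -0.13 and 0.16. Tpp2, a cytosolic peptidase, stood at 19.0 and 17.3 FPKM, and Nrd1, a metallopeptidase, at 48.9 and 54.9 FPKM.

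Of 12 listed genes of folding, loading and transport in the endoplasmic reticulum, 10 were higher. Rows of at least 20 FPKM were mostly higher too (3230 of 4497), and with the running median subtracted the 12 had a median of -0.02. Calr, calreticulin, which joins tapasin in the loading complex, stood at 372 FPKM in siNC against 614 FPKM in siLinc-Yy1 (0.72), the one pathway gene outside the members past 1.5-fold. Its nearest rows had a median of 0.71, so it lay 0.02 above them, unlike Tapbp. Pdia3, the disulfide isomerase bound to tapasin, stood at 149 and 186 FPKM. Pdia6 stood at 130 and 164 FPKM, and Hspa5, the main chaperone of this compartment, at 191 and 227 FPKM. With the running median subtracted, Pdia3 stood at -0.02, Pdia6 at 0.03 and Hspa5 at -0.15.

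Other heavy chains and class I-like genes did not follow H2-K1 and H2-D1. Of 35 rows found, 21 reached a mean of 1 FPKM, with 8 higher and 13 lower. None changed by 1.5-fold and the authors' deposited table called none. H2-Q4, the most abundant, stood at 52.9 FPKM in both libraries, close to the level of H2-D1 in siNC, and H2-T23, which encodes the nonclassical Qa-1, at 36.5 and 36.9 FPKM. H2-Q9, with status LOWDATA, stood at 9.72 and 7.81 FPKM, and H2-T10 at 10.2 and 8.26 FPKM. In the locus of H2-D1, H2-Q1 stood at 6.21 and 5.92 FPKM and LOC547349 at 13.0 and 8.87 FPKM, both lower where H2-D1 was higher. Whether the division of reads among these 3 rows had a part in this was not tested. The 3 rows of this locus summed to 74.5 FPKM in siNC against 89.5 FPKM in siLinc-Yy1, a ratio of 1.20.

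Class II genes, which present peptides from outside the cell, were mostly below 1 FPKM. Of 15 class II and costimulatory genes, 4 passed. Cd74, the invariant chain, stood at 1.00 and 1.56 FPKM, and its ratio interval on 1 kb ran from 1.11 to 2.22. H2-DMa stood at 3.51 and 4.22 FPKM. Ifi30, a lysosomal thiol reductase, stood at 44.5 and 52.4 FPKM, and the costimulatory gene Cd80 at 28.2 and 27.6 FPKM. Ciita, the class II master regulator, was under 0.03 FPKM in both libraries.

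Most regulators of class I genes stood at similar levels in both libraries. Nlrc5, the class I coactivator, stood at 1.27 and 1.07 FPKM, a ratio whose interval (0.575 to 1.20) includes 1. Irf1, which binds the interferon response element, stood at 34.5 and 32.3 FPKM. Stat2 and Irf9, which act in the response to type I interferon, measured 34.1 and 27.7 FPKM (Stat2) and 31.0 and 26.1 FPKM (Irf9). The NF-kB inhibitor Nfkbia, itself an NF-kB target, stood at 28.2 and 32.9 FPKM. Of the 30 regulators measured, 14 were higher and 16 lower, none past 1.5-fold and none called in the authors' deposited table, with a median of -0.03.

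Of 46 antiviral genes that interferon induces, 35 were lower and 11 higher, where 6438 of all 11792 rows were lower. Their median was -0.34, and -0.29 with the running median subtracted. The authors' deposited table called Ifit3, Ifit1, Mx2, Igtp, Iigp1, Parp14 and Usp18 lower and Oas3 higher, which is 7 and 1 of 46, beside 0.327% of tested rows called lower and 1.29% called higher. Igtp, an interferon-inducible GTPase, stood at 20.3 and 11.7 FPKM, and Oas3, which makes oligoadenylate in response to duplex RNA, at 6.13 and 9.57 FPKM. Tap1, Tap2 and Psmb9 lay on the side of the lower antiviral genes, and B2m and Bst2 on the other. Bst2 is itself an interferon-induced antiviral gene, but it was counted with the members and not among the 46. Among the antiviral genes of at least 20 FPKM, 5 of 15 were higher, against 3230 of 4497 rows of that level. Among those under 20 FPKM 6 of 31 were, against 2124 of 7295 rows. The median log2 change of the 15 abundant ones was -0.18, against 0.09 for all rows of at least 20 FPKM. That of the 31 scarce ones was -0.40, against -0.08 for all rows between 1 and 20 FPKM. All 6 members of at least 20 FPKM were higher at the same cut, and their difference from the antiviral genes was not tested. Ifitm3, an antiviral membrane protein and the most abundant of the list, stood at 505 and 926 FPKM (0.87). It lay 0.13 above the median of its nearest rows. Lgals3bp, a secreted glycoprotein of the same list, stood at 97.0 and 154 FPKM and lay 0.39 above, with 4 of 200 rows above it.

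**Figure D5:**
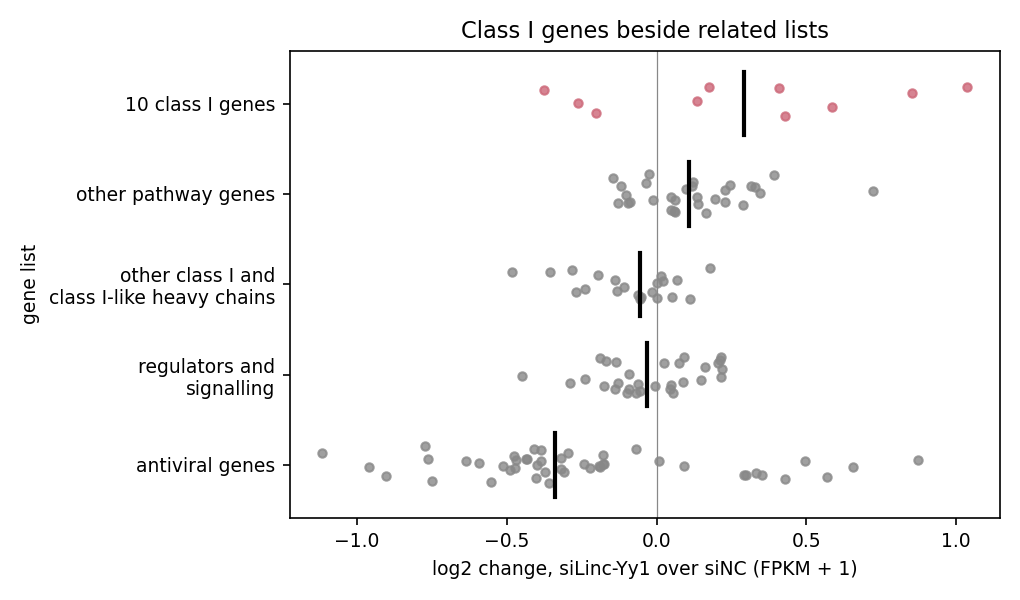
Log2 change of siLinc-Yy1 over siNC for genes with a mean of at least 1 FPKM in 5 lists (points, 1 per gene; vertical bars, list medians; vertical jitter has no meaning). The medians are 0.29 for the 10 genes, 0.11 for other pathway genes, -0.06 for other heavy chains and class I-like genes, -0.03 for regulators and -0.34 for antiviral genes.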

How the data were processed

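RNA-seq of C2C12 myoblasts was used as deposited, in 1 gene-level table present as 2 identical copies. Its FPKM values, 1 per gene and library, were estimated by the authors with Cuffdiff, per the file headers. The deposited p-value and q-value of each row come from the authors' own test of the same 2 libraries. The deposited log2 fold change column, entered as a score because infinite folds are written as extreme numbers, served only to check direction. Per the submitters' processing notes the tools included Cuffdiff 2.0.4, Cufflinks 2.1.1 and TopHat2 2.0.4, with the build mm9. How libraries were scaled, the annotation and the use of strand: not given in the sources used here. The table's starts were raised by 1 to count from 1.

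Changes used a pseudocount of 1 FPKM. Counts used rows with a mean of at least 1 FPKM, and a trend was a running median along the level of the rows. The fold rule was tested on simulated data. Depth came from receptor genes whose low FPKM steps by 1 fragment; whole multiples, within 0.02 fragments, made up 57.8% of 633 rows (siNC) and 48.6% of 533 rows (siLinc-Yy1), so no count test was run. Analyses used Python 3.11.15 with pandas, NumPy and SciPy. Members and lists were chosen with earlier results of these data known. Named genes are all members, the constitutive subunits Psmb5, Psmb6 and Psmb7, the regulators Nlrc5 and Irf1, up to 4 genes per other list with the largest change, genes called in the deposited table and the 6 rows nearest to B2m. A few genes that this rule names are not reported here. Rows above B2m, and H2-Q1, LOC547349, H2-Q4, H2-T23, Lgals3bp, Ciita and Ptprc, were named after their values were seen.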

Additional observations from a re-analysis of the deposited data

How the results depend on the processing

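Tried in turn were a pseudocount of 0.1 or 5 FPKM, dropping the filter or raising it to a mean of 5 FPKM, rescaling both libraries to the same summed FPKM, centring, and subtraction of the running median. Of the 10 members, 8 kept their sign under every one of these that could be run; Psmb8 and Psmb10 turned only under rescaling (-0.14 and -0.13). Psmb9 has no value at a mean of at least 5 FPKM. Rescaling moved the median of all rows from -0.02 to -0.30 and that of the members from 0.29 to -0.022; the members' median was 0.41 at a mean of at least 5 FPKM. The count of members at least 2-fold higher went from 1 to 0 under rescaling and under the running median, and was 3 at a fold of 1.5. Over all rows, 164 were at least 2-fold higher and 21 lower; these counts were 109 and 7 with a pseudocount of 5, 93 and 38 under rescaling, and for lower rows 39 with no filter and 7 at a mean of at least 5 FPKM. B2m lay 0.52 above its nearest rows when up to 400 were sought (333 found) and also when ribosomal protein, histone and small RNA rows were left out. Less a running median it stood at 0.41 with a narrower window and 0.64 with a wider one. With 1 FPKM added, the inducible shares in siNC and siLinc-Yy1 became 5.95% and 6.31% for Psmb8 and 3.05% and 2.02% for Psmb9, from the added value itself. The causes of the other shifts were not tested. No paired analysis was possible because each condition has 1 library. With 1 library, none could be left out.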

Other observations

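Raet1e and Raet1d were lower in the siLinc-Yy1 library. They encode ligands of the receptor NKG2D, stress-induced relatives of class I heavy chains that natural killer cells recognise. Raet1e stood at 22.03 FPKM in siNC against 17.0 FPKM in siLinc-Yy1, a ratio with a counting interval of 0.706 to 0.841, and Raet1d at 12.4 and 8.59 FPKM, with an interval of 0.614 to 0.782. Their q-values in the authors' deposited table were 0.928 and 0.926. Both share a locus of 7 rows, so reads were divided between near-identical copies there. Of the further ligand rows in it, H60b stood at 0.348 and 0.129 FPKM and Raet1b at 0 in both libraries. The locus also has the joint rows Raet1a,Raet1b and Raet1c,Raet1e, which the list of single genes left out. Fcgrt, the heavy chain of the neonatal Fc receptor, which pairs with the B2m protein, stood at 20.8 and 18.9 FPKM. Mr1, which pairs with it to present vitamin B metabolites, stood at 10.8 and 9.69 FPKM, and Hfe, its iron-regulating partner, at 1.48 and 1.29 FPKM. These 3 partners of B2m were each slightly lower, while the heavy chains H2-K1 and H2-D1, which also pair with it, were higher. All 3 had a mean between 1 and 20 FPKM, where 5171 of 7295 rows were lower. With the running median subtracted, Fcgrt stood at -0.10, Mr1 at -0.06 and Hfe at -0.06 on the log2 scale. Whether the 3 differed from other rows of their level was not tested. H2-M3, which presents formylated peptides, stood at 7.17 and 7.47 FPKM. These genes were picked after their values were seen.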
